A study of Mus musculus with 16 samples.

Results

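Accessible chromatin of *Morc1* knockout and *Morc1* heterozygous gonocytes was compared at E16.5, a late fetal stage named by its embryonic day, peak by peak, on the 19 autosomes. The knockout list held 54786 autosomal peaks and the heterozygous list 51706. A peak was called shared when it overlapped a peak of the other list by at least 1 bp, knockout-only or heterozygous-only (together, private) when it did not, and this gave 64500 distinct peaks. The 6 distinct peak lists of the series hold 302829 peaks.

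Male germ cells came from testes of mice carrying the Mvh-Venus transgene, a fluorescent germ-cell reporter that both genotypes share. The E16.5 knockout group is *Morc1* (-/-) and its comparison group *Morc1* (+/-), with 2 samples each, out of 16 samples in the series. Lists of E13.5 and of the newborn stages P0 and P3 (postnatal days 0 and 3) served to tell whether a site was open at another time. The heterozygous group carries 1 mutant allele and is not wild type. The method was ATAC-seq, in which a transposase cuts open DNA and inserts sequencing adapters there. One list stands for each group, so replicate error could not be measured and no test across samples was run. Read depth is unknown, and the length of a list can follow depth as well as cells. Intervals below are 95% Wilson intervals over peaks (for medians, 95% order-statistic intervals) and cover counting error only. In bulk samples fewer cells with an open site and a weaker signal per cell cannot be told apart.

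MORC1 belongs to a family of GHKL-type ATPases that act on chromatin, and in male germ cells it takes part in silencing transposons. Gonocytes, the fetal and newborn male germ cells, lose DNA methylation before this window, stop dividing, and then gain new DNA methylation while the piRNA pathway directs silencing to transposons. An ATAC-seq peak marks a promoter, an enhancer or another site where nucleosomes are displaced, and gives no direction of transcription by itself.

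The lists were set against markers of cell types, by peaks at gene ends, meaning within 1000 bp of an outer end of the gene. Over all 20665 protein-coding autosomal genes, 59.1% had a gene-end peak in both lists and 35.9% in neither. Of 12 germ cell markers, 8 (66.7%) had one in both lists, *Ddx4*, *Dazl*, *Mael* and *Sycp3* among them, a share near that of all genes. *Nanos2*, *Nanos3*, *Piwil2* and *Dppa3* had none in either list. Somatic markers were present too. A gene-end peak stood in both lists at 6 of 12 Sertoli markers, 5 of 9 stromal and peritubular markers, 3 of 7 endothelial markers, 2 of 6 Leydig markers and 1 of 8 macrophage and blood markers. The germ cell share was thus not far from those of Sertoli (50%) and stromal (55.6%) markers, and such counts do not measure the purity of the cells. No defining blood gene except *Spi1* had such a peak. *Morc1* had gene-end peaks in both lists, which does not check the knockout, since a peak outside the deleted part can stay.

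A few promoters of germ-line genes are printed here because each had a private peak centred within 500 bp of its start. *Nanog*, *Tcl1* and *Nodal* had the peak in the knockout list, *Lhx1* and *Smad3* in the heterozygous list, and *Ddx4*, a germ cell gene with the peak in both, is given for comparison. Each line is the 250 bases before the annotated start, read 5′ to 3′ on the strand of the gene, from RefSeq on GRCm38.p6, with CpG dinucleotides in capitals.
Nanog: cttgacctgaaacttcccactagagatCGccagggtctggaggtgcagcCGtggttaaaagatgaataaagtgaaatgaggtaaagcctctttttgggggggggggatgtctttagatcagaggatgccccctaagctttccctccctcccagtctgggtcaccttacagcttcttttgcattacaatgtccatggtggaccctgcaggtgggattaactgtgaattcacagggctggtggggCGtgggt
Tcl1: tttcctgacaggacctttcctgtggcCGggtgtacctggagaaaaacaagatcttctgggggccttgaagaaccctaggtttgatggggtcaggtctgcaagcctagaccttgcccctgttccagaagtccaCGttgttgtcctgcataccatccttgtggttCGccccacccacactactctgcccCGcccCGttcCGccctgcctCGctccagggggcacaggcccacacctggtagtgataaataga
Nodal: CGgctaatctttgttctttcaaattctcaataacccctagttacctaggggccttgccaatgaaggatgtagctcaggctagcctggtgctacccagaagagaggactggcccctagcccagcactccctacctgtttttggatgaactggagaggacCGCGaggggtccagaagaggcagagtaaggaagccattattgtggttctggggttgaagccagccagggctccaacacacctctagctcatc
Lhx1: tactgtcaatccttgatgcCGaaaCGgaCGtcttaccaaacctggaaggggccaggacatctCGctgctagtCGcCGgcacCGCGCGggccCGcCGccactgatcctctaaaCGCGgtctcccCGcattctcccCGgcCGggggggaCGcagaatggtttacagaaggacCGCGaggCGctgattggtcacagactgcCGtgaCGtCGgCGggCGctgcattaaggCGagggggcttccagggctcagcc
Smad3: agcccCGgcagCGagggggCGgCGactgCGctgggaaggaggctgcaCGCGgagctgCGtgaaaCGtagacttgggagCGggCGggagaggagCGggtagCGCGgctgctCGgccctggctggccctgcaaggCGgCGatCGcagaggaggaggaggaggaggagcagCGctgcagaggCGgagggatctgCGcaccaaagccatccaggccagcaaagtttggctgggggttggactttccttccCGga
Ddx4: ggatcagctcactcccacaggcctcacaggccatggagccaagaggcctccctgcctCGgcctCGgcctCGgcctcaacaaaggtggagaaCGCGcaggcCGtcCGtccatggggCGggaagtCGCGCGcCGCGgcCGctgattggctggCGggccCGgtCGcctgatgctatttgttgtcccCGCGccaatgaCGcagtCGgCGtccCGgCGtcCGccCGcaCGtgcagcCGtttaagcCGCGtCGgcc

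The *Nanog* stretch lies on the plus strand at chr6:122707239-122707488 and *Nodal* on the plus strand at chr10:61417722-61417971. The printed *Nodal* bases lie outside its peak, chr10:61418002-61418502, which is centred 280 bp after the start. *Tcl1* is on the minus strand at chr12:105222738-105222987, *Lhx1* on the minus strand at chr11:84525535-84525784, *Smad3* on the minus strand at chr9:63757995-63758244 and *Ddx4* on the minus strand at chr13:112652311-112652560. The printed bases hold 3 CpGs at *Nanog*, 3 at *Nodal* and 7 at *Tcl1*. They hold 26 at *Lhx1*, 22 at *Smad3* and 31 at *Ddx4*. The promoters shown are a choice. *Rxra* and *Ehmt2*, other listed genes with a heterozygous-only peak at a start, hold 40 and 36 CpGs in the same 250 bases. Not every listed gene divides by CpG content in this way. *Sall1*, a zinc finger gene of the differentiation list, had a knockout-only peak centred 138 bp before a start whose 250 preceding bases hold 25 CpGs, and a heterozygous-only peak centred 53 bp before another start, with 30 CpGs.

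Over all promoters the private classes had similar CpG content. Among 20085 annotated starts with a window of the 250 bases before and 50 after the start, 405 (2.02%) met a knockout-only peak and no shared peak, and 295 (1.47%) a heterozygous-only peak and no shared peak. The median window held 12 CpGs in the knockout-only class, 14 in the heterozygous-only class, 23 in the 10278 windows with a shared peak and 4 in the 9103 windows with no peak. Private promoters of either genotype thus lay between the shared and the peak-free ones in CpG content. Windows with 15 or more CpGs made up 45.4% of the knockout-only class, 48.5% of the heterozygous-only class and 78.7% of the shared class.

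Short motifs were searched on both strands of the same windows as a description. GGGCGG, the GC box read by SP factors, was in 52.8% of the knockout-only windows, 53.6% of the heterozygous-only windows and 70.6% of those with a shared peak, against 47.0% of all windows. CCAAT, read by NF-Y, was in 30.1%, 25.8% and 39.5%, against 38.1% of all. TGANTCA, an AP-1 motif, was in 5.93% of knockout-only and 8.81% of heterozygous-only windows, against 3.81% of shared ones and 7.06% of all. TGACGTCA, a CREB and ATF motif, was in 1.23%, 1.02% and 3.69%, against 2.3% of all. ATGCAAAT, the octamer read by POU factors such as OCT4, was in 0.741%, 1.36% and 1.36%, against 1.67% of all. For the GC box, the NF-Y motif and the CREB motif the private classes stood nearer to each other than either did to the shared class. The octamer was in only 3 knockout-only and 4 heterozygous-only windows.

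Genome-wide, the knockout list held more private peaks than the heterozygous list. There were 41992 shared peaks on autosomes, 12794 knockout-only peaks (23.4% of the knockout list, 23.0% to 23.7%) and 9714 heterozygous-only peaks (18.8% of the heterozygous list). Knockout-only peaks were 1.32 times as many as heterozygous-only peaks (1.28 to 1.35), a quotient called the private ratio below. Since the 2 lists share the same overlaps, the excess is the difference in list length. Most private peaks were well apart from the other list: the gap to its nearest peak had a median of 14315 bp for knockout-only and 11068 bp for heterozygous-only peaks. Only 490 knockout-only peaks (3.83%) and 497 heterozygous-only peaks (5.12%) lay within 500 bp of one.

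Promoters were mostly the same in both genotypes, and the private peaks lay away from them. Of the shared peaks with annotated starts on their chromosome, 8878 (21.7%) had their midpoint within 500 bp of a protein-coding start, compared with 412 knockout-only peaks (3.32%, 3.02% to 3.65%) and 304 heterozygous-only peaks (3.21%, 2.87% to 3.58%). The private classes did not differ in this share beyond counting error. The median distance to the nearest start was 46.7 kb for shared, 83.1 kb (78.6 to 87.2) for knockout-only and 105 kb (99.3 to 113) for heterozygous-only peaks. Beyond the first 1 kb, the order changed: the medians were 102 kb for shared, 91.7 kb for knockout-only and 119 kb for heterozygous-only peaks. Heterozygous-only peaks were thus the farthest out, with 12.6% of them over 1 Mb from a start, against 9.25% in the knockout-only and 9.58% in the shared class. The start table covers 16457 of 20665 genes and none on chromosome 18, so some of these distances are too long.

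The balance between the private classes changed with distance. Within 500 bp of a start, 4.43% of knockout-list peaks and 3.31% of heterozygous-list peaks were private. Between 50 and 100 kb, the shares were 29.4% and 21.3%. The private ratio was 1.36 (1.17 to 1.57) within 500 bp, 0.778 (0.598 to 1.01) at 1 to 2 kb, 1.60 (1.49 to 1.71) at 20 to 50 kb and 0.964 (0.889 to 1.05) beyond 1 Mb. The knockout excess was therefore a feature of the middle range, 5 to 500 kb from a start, and of the promoters themselves, and was not seen beyond 500 kb. At E13.5 the same ratio was 1.25 within 500 bp, 0.955 at 20 to 50 kb and 0.724 at 200 to 500 kb, so the E16.5 profile was not that of the earlier stage.

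**Figure D1:**
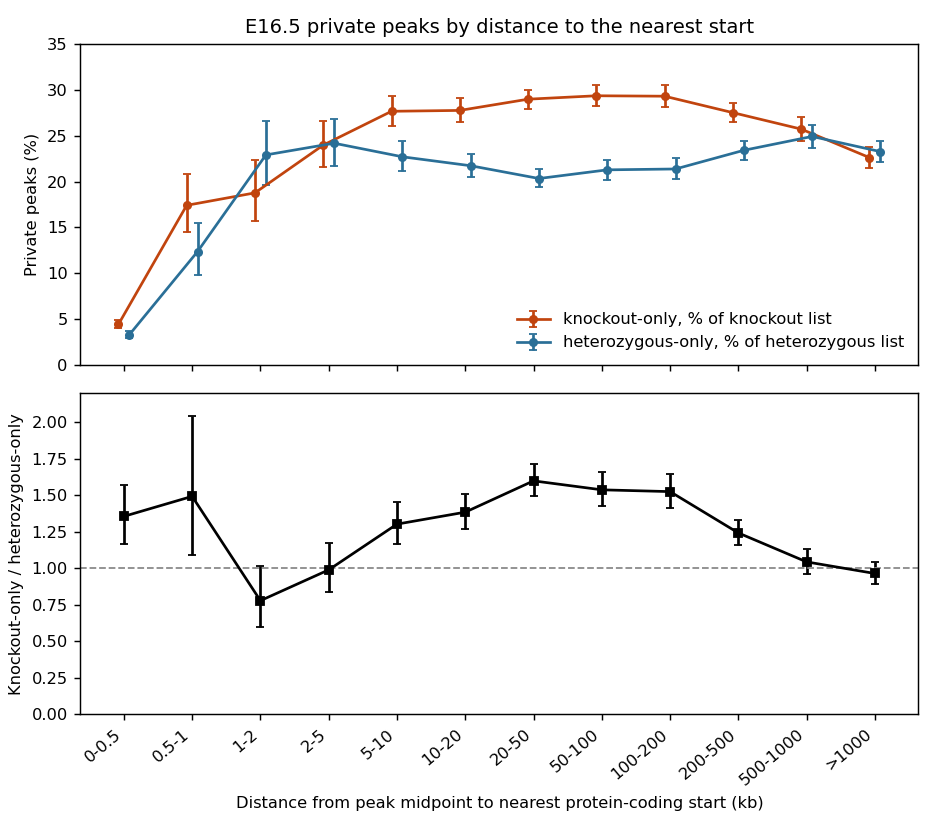
Private share of each E16.5 list (upper panel, percent) and private ratio, knockout-only over heterozygous-only (lower panel), by distance in kb from the peak midpoint to the nearest protein-coding start, with 95% intervals over peaks. The ratio is highest, 1.60, at 20 to 50 kb and close to 1 beyond 500 kb.

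Relative to gene bodies, 41.8% of shared peaks, 34.3% of knockout-only peaks (33.5% to 35.1%) and 33.0% of heterozygous-only peaks (32.1% to 33.9%) had their midpoint inside a protein-coding gene. At gene ends stood 26.6% of the shared class, 6.58% of the knockout-only class and 6.42% of the heterozygous-only class. Which of the private classes met gene ends more often turned with the window: with 5000 bp it was 14.6% of knockout-only and 15.3% of heterozygous-only peaks. Private peaks at a start lay more often after it than before it, as did shared peaks, with 4684 at 1 to 500 bp downstream and 4194 up to 500 bp upstream. In the knockout-only class 254 were 1 to 500 bp downstream and 158 were up to 500 bp upstream, and in the heterozygous-only class 180 and 124.

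Each peak was then given to 1 gene, the protein-coding gene whose body holds its midpoint or else the nearest. At least 1 knockout-only peak fell to 6122 genes (29.6% of 20665) and at least 1 heterozygous-only peak to 4603 (22.3%). Several, meaning 3 or more, knockout-only peaks fell to 1213 genes (5.87%) and several heterozygous-only peaks to 746 (3.61%), and 490 genes had several of both. These genes are long: the median gene with several knockout-only peaks spans 93.7 kb and with several heterozygous-only peaks 96.3 kb, against 17.5 kb for all genes. Knockout-only peaks outnumbered heterozygous-only ones at 4436 genes (21.5%), and the reverse held at 2536 (12.3%).

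The genes with the most private peaks of each class overlapped in part: 4 of the first 12 were in both rankings. *Pcdh9*, a protocadherin gene at chr14:93013700-93892834, had 37 knockout-only, 38 heterozygous-only and 131 shared peaks. *Pcdh7*, another protocadherin gene, had 34 knockout-only, 43 heterozygous-only and 159 shared peaks. *Tenm3*, a teneurin that guides neuronal wiring, had 32, 34 and 83. At these 3 genes both lists had private peaks in similar numbers.

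*Ncam2*, a neural cell adhesion molecule, had 28 knockout-only and 46 heterozygous-only peaks, and with *Pcdh9*, *Pcdh7* and *Tenm3* is in both rankings. *Slitrk5*, a synaptic adhesion gene of 8.03 kb, had 31 knockout-only and 22 heterozygous-only peaks, none of them inside its body. The first 12 genes by knockout-only peaks, which also include *Csmd3*, *Gpc5*, *Nrg3*, *Cadm2*, *Ptprd*, *Flrt2* and *Epha7*, held 356 knockout-only and 359 heterozygous-only peaks in all. The first 12 by heterozygous-only peaks, which also include *Pcdh20*, *Tmeff2*, *Slitrk1*, *Grik2*, *G6pd2* and *Pabpc4l*, held 301 and 453. Across 2394 windows of 1 Mb the 2 counts had a Pearson r of 0.39, as a description over windows that share gene density and mappable length.

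At some genes the classes were far apart. The largest knockout excess was at *Trps1* (chr15:50654757-50890631), a GATA-type transcriptional repressor, with 20 knockout-only, 3 heterozygous-only and 23 shared peaks. *Kcnv1*, a modifier subunit of potassium channels, had 21 knockout-only and 5 heterozygous-only peaks. *Map3k7*, the TGF-beta-activated kinase TAK1, had 20 and 6. *Csmd3*, on the same chromosome as *Trps1* and *Kcnv1*, had 30 and 16. The 3 chromosome 15 genes lie within a few megabases of one another.

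*Lrig3*, a membrane protein that tunes growth factor receptors, had 14 knockout-only and 2 heterozygous-only peaks. *Tenm4*, a teneurin, had 17 and 5. *Efnb2*, the ephrin-B2 ligand, had 17 and 7. *Nova1*, a splicing regulator, had 22 and 11, *Ccser1* 19 and 7, and *Sgcz*, a sarcoglycan, 13 and 4. These 10 genes, chosen for the excess, held 193 knockout-only and 66 heterozygous-only peaks. At E13.5 the same 10 held 26 knockout-only and 43 heterozygous-only peaks, with the heterozygous class larger at 7 of them and the knockout class at 3. The E16.5 excess at these genes was not present in the E13.5 lists.

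The largest heterozygous excess was at *Pcdh17* (chr14:84443563-84537565), with 17 knockout-only, 41 heterozygous-only and 130 shared peaks. *Rapgef2* (chr3:79062511-79286545), an exchange factor for RAP GTPases, had 5 and 28, and 40% of its heterozygous-list peaks were private. *Brinp3*, a neural gene of the retinoic acid-inducible BRINP family, had 23 and 43. *Epha6*, an ephrin receptor, had 12 and 29, with 16 of the 29 inside its body. *Kcnd2*, a potassium channel of A-type currents, had 5 and 22.

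*Gm597* had 11 knockout-only and 32 heterozygous-only peaks, *Tmeff2*, a membrane protein with follistatin-like domains, 19 and 34, and *Pabpc4l* 17 and 33. These 9 genes, *Ncam2* included and also chosen for the excess, held 137 knockout-only and 308 heterozygous-only peaks. At E13.5 they held 43 and 47, with the knockout class larger at 5 of them and the heterozygous class at 4. The classes were thus close to even at these genes at the earlier stage.

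**Figure D2:**
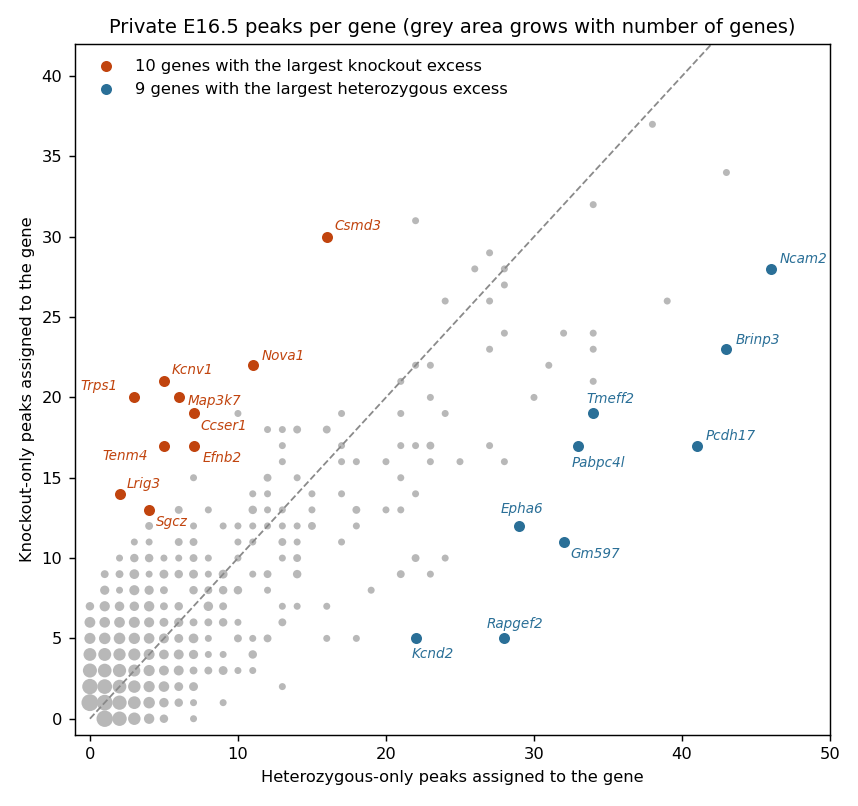
Knockout-only against heterozygous-only peaks of each gene at E16.5 (counts of peaks, with grey dots that grow with the number of genes at the same place). Coloured dots are the 10 genes with the largest knockout excess and 9 with a large heterozygous excess, and the dashed line marks equal counts.

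Many genes had private peaks of 1 genotype alone. Of 6122 genes with a knockout-only peak, 3455 had no heterozygous-only one. Of 4603 genes with a heterozygous-only peak, 1936 had no knockout-only one. Among genes with 3 or more private peaks of a class, it was 283 of 1213 (knockout-only) and 65 of 746 (heterozygous-only). The genes named here had the most such peaks. *Tbx5*, a T-box factor of heart and forelimb, had 7 knockout-only, 0 heterozygous-only and 2 shared peaks. *Lgr5*, the R-spondin receptor known as a stem cell marker, had 6, 0 and 1. *Itgbl1*, an integrin-beta-like gene, had 7, 0 and 4, all 7 inside its body. *Pou3f1*, which encodes the POU factor OCT6 found in undifferentiated spermatogonia, had 6, 0 and 3.

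The knockout-only peaks of *Pou3f1* all lay on the lower-coordinate side of the gene, between 24180 and 340344 bp from its nearer end, and 5 of the 6 were present in a list of another stage. *Lrfn2*, *Mrm1*, *Caln1*, *Dph6*, *1700018B08Rik* and *Asic2* complete the first 10 with 6 or 7 knockout-only peaks. Of the 63 knockout-only peaks of these 10 genes, 48 were found in a list of another stage, beside 63.5% of all knockout-only peaks. In the other direction *Tmem196* had 7 heterozygous-only and 0 knockout-only peaks, and *Rgs20*, a regulator of G-protein signalling, *Fam171a1* and *Gm28710* had 5 each. *Vmn2r72*, *Nck2*, *Niban1*, *Ptprr*, *Rftn2* and *Tes* had 4 each. Of these 46 heterozygous-only peaks, 27 were found at another stage, beside 57.2% of all heterozygous-only peaks.

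Private peaks of 1 genotype also followed one another without a peak of any other class between them. Runs of 3 or more consecutive knockout-only peaks numbered 455 and held 12.1% of the class, and runs of heterozygous-only peaks numbered 209 and held 7.02%. A more numerous class forms more runs, and the part of class size was not tested. At E13.5, where heterozygous-only peaks were the more numerous, such runs held 8.28% of knockout-only and 12.1% of heterozygous-only peaks. The longest knockout-only run had 10 peaks at chr11:99284773-100295730, across the type I keratin and keratin-associated protein genes. Of those 10 peaks, 9 were in the P0 list, so most of these sites were also open in newborn germ cells. The next knockout-only runs had 7 peaks each, and both fell at genes named above. One covers *Tbx5* at chr5:119761979-119978686 and one *Trps1* at chr15:50460706-50777531. The longest heterozygous-only run had 7 peaks within chr1:145863070-145996036, below *Brinp3*, with no protein-coding gene inside.

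In windows of 1 Mb, knockout-only peaks outnumbered heterozygous-only ones in 1475 of 2394 windows and the reverse held in 646. The window with the largest knockout excess, chromosome 5 from 119 to 120 Mb, holds the neighbours *Tbx3* and *Tbx5* and had 19 knockout-only, 3 heterozygous-only and 8 shared peaks. At E13.5 it had 2 and 1. The window at chromosome 11 from 96 to 97 Mb, which holds the Hoxb cluster, had 16 and 3. The largest heterozygous excess was on chromosome 3 from 78 to 79 Mb, next to *Rapgef2*, with 4 knockout-only and 24 heterozygous-only peaks.

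**Figure D3:**
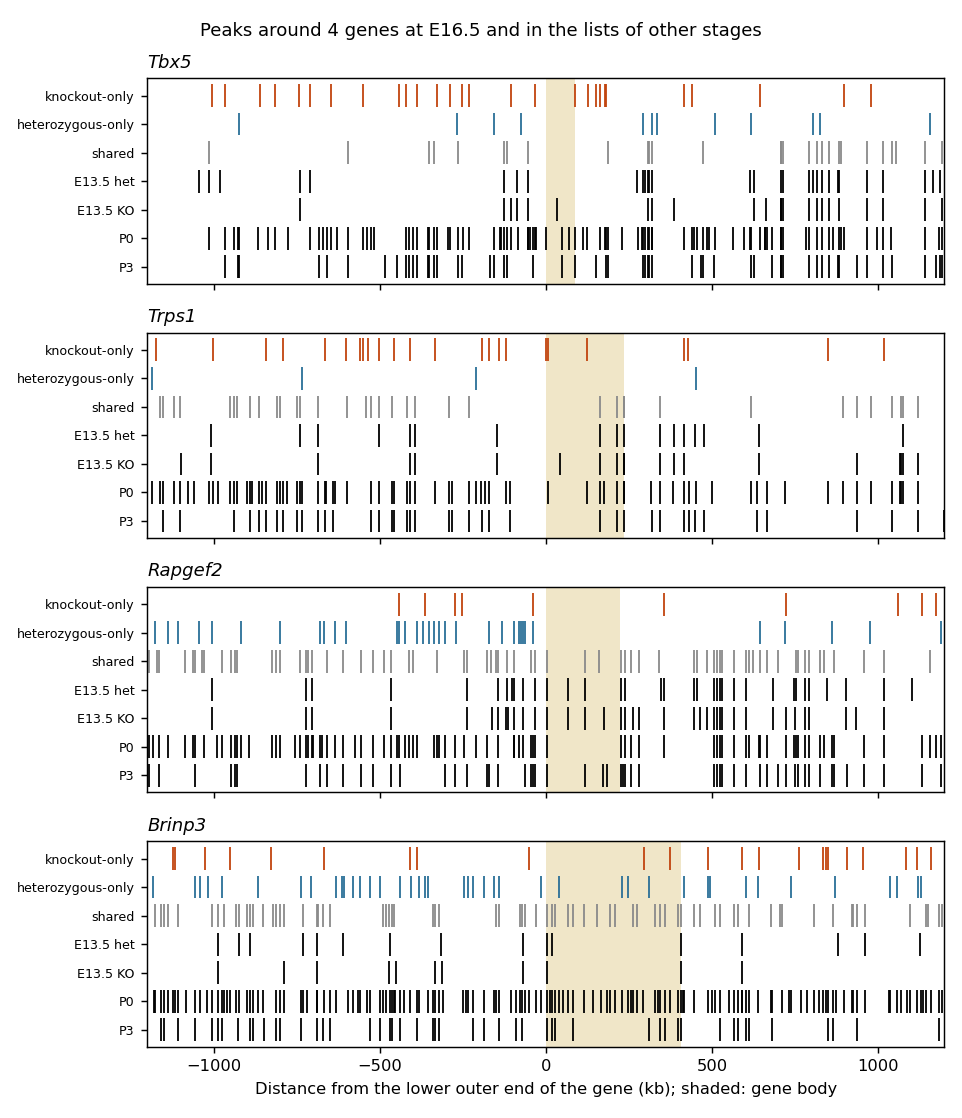
Positions of peaks around *Tbx5*, *Trps1*, *Rapgef2* and *Brinp3*, in kb from the lower outer end of each gene, for the 3 classes at E16.5 and for the lists of other stages; each tick is 1 peak and the shaded band is the gene body. Knockout-only ticks outnumber heterozygous-only ticks at *Tbx5* and *Trps1* and are outnumbered at *Rapgef2* and *Brinp3*, and many of them reappear in the P0 row.

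The private ratio was not even across chromosomes. It was above 1 on 17 of 19 autosomes, with the interval above 1 on 16. Chromosome 11 had 597 knockout-only and 272 heterozygous-only peaks, a ratio of 2.19 (1.90 to 2.53). Chromosome 19 followed with 243 and 134, a ratio of 1.81 (1.47 to 2.24). Chromosome 3, home of *Rapgef2* and *Pabpc4l*, had 771 and 858, a ratio of 0.899 (0.815 to 0.990), the only autosome whose interval lay below 1. Chromosome 1, home of *Brinp3*, *Tmeff2* and *Gm597*, had 961 and 963. Chromosomes 11 and 19 are rich in genes for their length, and the part of gene density in these ratios was not tested.

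**Figure D4:**
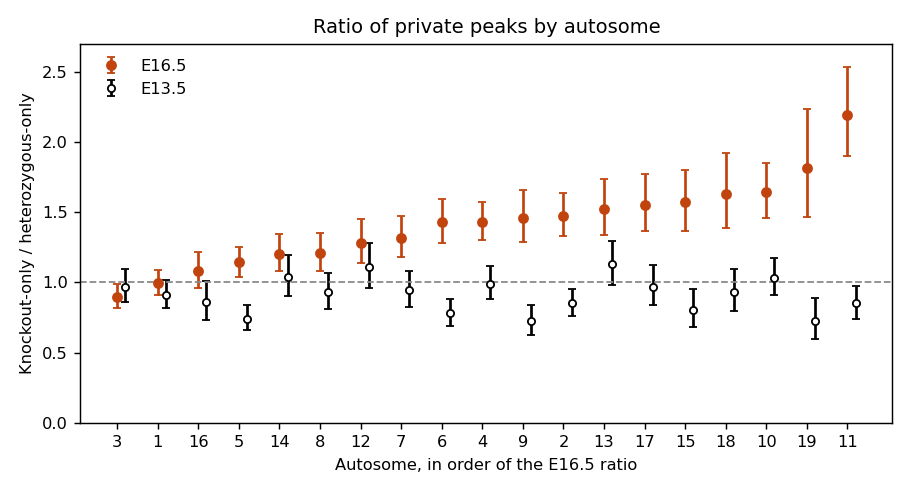
Private ratio, knockout-only over heterozygous-only, on each autosome at E16.5 (filled) and E13.5 (open), with 95% intervals over peaks; the dashed line marks equal numbers. The E16.5 ratio runs from 0.899 on chromosome 3 to 2.19 on chromosome 11.

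Pluripotency genes carried the private peaks mostly in the knockout list. The 22 listed genes held 45 knockout-only peaks, 36.3% of their knockout-list peaks against 23.4% over all genes, and 18 heterozygous-only peaks, 18.6% of their heterozygous-list peaks against 18.8%. At least 1 knockout-only peak fell to 15 of the 22 genes (29.6% over all genes) and at least 1 heterozygous-only peak to 9 (22.3% over all genes). The median gene of the list had 1 knockout-only and 0 heterozygous-only peaks, against 0 and 0 over all genes. Of the 45 knockout-only peaks, 32 were in a list of another stage, 25 of them at P0. Over all knockout-only peaks these shares were 63.5% and 48.9%.

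Among these genes, *Nr5a2*, an orphan nuclear receptor, and *Tbx3*, a T-box factor, had 9 knockout-only peaks each, with 2 and 3 heterozygous-only peaks. Without both the list has 27 knockout-only and 13 heterozygous-only peaks. *Klf5*, a zinc finger factor, had 4 and 0, *Esrrb*, an orphan nuclear receptor, 3 and 0, *Dppa2* 3 and 0, and *Dppa4* 2 and 0. *Dppa2* and *Dppa4* are neighbours that share a stretch of chromosome 16. *Zfp42*, known as REX1, had 2 and 0. *Sox2* went the other way with 2 knockout-only, 5 heterozygous-only and 15 shared peaks. *Pou5f1*, which encodes OCT4, had 1 shared peak and no private one.

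At gene ends, 3 of the 22 pluripotency genes had a peak in the knockout list only (2.92% over all genes) and 0 in the heterozygous list only (2.01% over all genes). They are *Nanog*, *Sall4* and *Tcl1*. The *Nanog* peak, chr6:122707046-122707546, is centred 193 bp before the start whose upstream bases are printed above, and was also in both E13.5 lists but not at P0 or P3. *Nanog*, a core pluripotency factor, had a heterozygous-only peak at chr6:122686629-122687129, 20610 bp upstream. The *Sall4* peak, chr2:168766905-168767405, was present in both E13.5 lists and at P0 and P3. SALL4 is a zinc finger factor of germ cells and stem cells, and the peak is the only one at E16.5 given to the gene.

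The *Tcl1* peak, chr12:105222642-105223142, is centred 155 bp before the start, was in neither E13.5 list and was in the P0 and P3 lists. TCL1 is a co-activator of AKT kinases. *Tcl1* also had 1 heterozygous-only and 5 shared peaks. Of the 3 sites, *Nanog* thus was missing from the heterozygous list and from the newborn lists, *Sall4* was missing from the E16.5 heterozygous list alone, and *Tcl1* was in the E16.5 knockout, P0 and P3 lists.

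The genes of spermatogonial stem cell self-renewal also held more knockout-only peaks. The 22 genes held 31 knockout-only peaks (40.3% of their knockout-list peaks, against 23.4% over all genes) and 10 heterozygous-only peaks (17.9% of their heterozygous-list peaks, against 18.8%). Knockout-only peaks fell to 13 of the 22 genes (59.1%, against 29.6% over all genes) and heterozygous-only peaks to 5 (22.7%, against 22.3%). *Gfra1*, the receptor for the niche factor GDNF, had 4 knockout-only peaks, no heterozygous-only and no shared peak, and 3 of the 4 recur at P0. One of them, chr19:58448340-58448840, lies inside the gene 6808 bp after a start. *Ret*, the signalling partner of GFRA1, had 1 shared peak only.

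*Id4*, an inhibitor of helix-loop-helix factors in spermatogonial stem cells, had 4 knockout-only, 1 heterozygous-only and 3 shared peaks. The nearest of its knockout-only peaks, chr13:48254931-48255431, lies 5935 bp before the start and recurs at P0 and P3. *Pou3f1*, described above, belongs to this list. *Itga6*, an integrin of the stem cell surface, had 2 and 0, and *Foxo1*, a forkhead factor, 3 and 4. *Lin28a*, which blocks let-7 processing, had 1 knockout-only peak, chr4:134035865-134036365, present in every list of the other stages. *Zbtb16*, known as PLZF, had 1 and 0.

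*Lhx1*, a LIM homeobox gene downstream of GDNF, had its start open in the heterozygous list only. The peak, chr11:84525316-84525816, is centred 32 bp from the start and was found in no list of another stage. In all, *Lhx1* had 4 knockout-only and 3 heterozygous-only peaks, the one at the start included. Upstream of the gene, 117271 and 117784 bp from the start, the classes lay side by side: a heterozygous-only peak at chr11:84642555-84643055 and a knockout-only peak at chr11:84643068-84643568 do not overlap by any base. Such neighbours count as private under the 1 bp rule.

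Beside these results stand the markers of somatic testis cells, read against 23.4% and 18.8% over all peaks. The 12 Sertoli markers had 10 knockout-only and 4 heterozygous-only peaks (32.3% and 16% of their lists' peaks), with *Wt1* at 3 and 0 and *Sox9* at 2 and 0. The 9 stromal and peritubular markers had 16 and 9 (32.7% and 21.4%), with *Nr2f2* at 6 and 2, *Col1a2* at 5 and 1 and *Pdgfra* at 1 and 5. *Pdgfrb* had a gene-end peak in the knockout list only. The 7 endothelial markers had 11 and 9 (25% and 21.4%), near the shares over all peaks. The 6 Leydig markers had 3 and 2 (37.5% and 28.6%), above those shares but on few peaks. The 8 macrophage and blood markers had 3 and 2 (17.6% and 12.5%), below those shares. The part of somatic cells in the result was not tested.

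**Figure D5:**
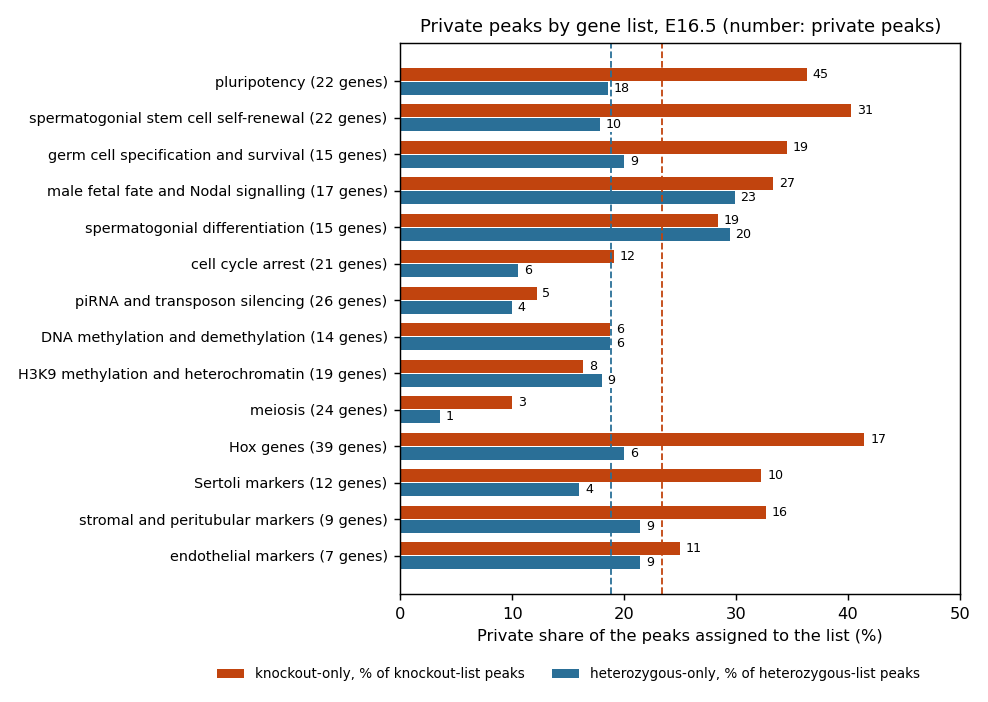
Private share of the peaks given to each gene list at E16.5, in percent of the knockout-list peaks and of the heterozygous-list peaks, with the number of private peaks beside each bar. Dashed lines mark 23.4% and 18.8%, the shares over all autosomal peaks. The pluripotency, stem cell and Hox lists have the largest gaps between bars. The Sertoli markers (32.3% and 16%) come close to the pluripotency list (36.3% and 18.6%).

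Hox genes, the patterning genes that stand in 4 clusters, showed the same lean. The 39 genes held 17 knockout-only peaks (41.5% of their knockout-list peaks, against 23.4% over all genes) and 6 heterozygous-only peaks (20%, against 18.8%). A gene-end peak stood in the knockout list only at 5 genes (*Hoxb9*, *Hoxb1*, *Hoxc8*, *Hoxa5* and *Hoxa6*; 12.8% of the 39, against 2.92% over all genes) and in the heterozygous list only at *Hoxc9* (2.56%, against 2.01%). *Hoxb9* and *Hoxc4* had 3 knockout-only peaks each, and no heterozygous-only one. *Hoxa5*, *Hoxa6* and *Hoxb9* had a gene-end peak in the heterozygous list only at E13.5. Since Hox genes are small and close together, a peak can meet the ends of more than 1 of them.

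Signals that steer the male fetal germ line were mixed. The 17 genes of this list held 27 knockout-only and 23 heterozygous-only peaks, 33.3% and 29.9% of their lists' peaks. *Acvr2a*, an activin receptor, took 15 and 12 of these. *Nodal*, a TGF-beta family ligand, had a knockout-only peak at chr10:61418002-61418502, centred 280 bp after the start, present in both E13.5 lists and at P0. *Smad3*, which carries activin and TGF-beta signals, had a heterozygous-only peak at chr9:63758023-63758523, centred 279 bp before the start, present in the lists of every other stage. *Smad3* also had 2 knockout-only peaks, 78191 and 91443 bp upstream. *Cyp26b1*, which degrades retinoic acid, had 2 knockout-only and 3 heterozygous-only peaks.

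Genes of germ cell specification and survival held 19 knockout-only and 9 heterozygous-only peaks over 15 genes, 34.5% and 20%, against 23.4% and 18.8% over all genes. The lists share members, so some peaks count in more than 1 list. *Prdm14*, *Sall4* and *Lin28a* are also pluripotency genes here, and *Sall4* and *Lin28a* also stem cell genes. *Dazl*, an RNA-binding translational regulator, had 4 and 1, *Kit*, the stem cell factor receptor, 4 and 3, and *Prdm1*, the repressor BLIMP1, 3 and 1. *Ifitm3*, an interferon-induced membrane protein of primordial germ cells, had a gene-end peak in the knockout list only, chr7:141008744-141009244, present at P0 and P3. Genes of spermatogonial differentiation held 19 and 20 over 15 genes, 28.4% and 29.4% of their lists' peaks. Both shares are above the 23.4% and 18.8% over all genes. *Sall1* had 3 and 6, and *Dmrtb1*, a DM-domain factor that acts at meiotic entry, had 2 and 2 and a gene-end peak in the heterozygous list only, chr4:107704080-107704580.

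Transposon silencing and meiosis genes had lower private shares than all genes in both lists. Of 26 piRNA and transposon silencing genes, 21 (80.8%) had a gene-end peak in both lists, against 59.1% over all genes. In 1 list only, 0 had one, near the shares over all genes of 2.92% (knockout) and 2.01% (heterozygous). The 26 genes held 5 knockout-only and 4 heterozygous-only peaks, 12.2% and 10% of their lists' peaks, against 23.4% and 18.8% over all genes. *Piwil4* and *Dnmt3l*, needed for new DNA methylation at transposons, had shared peaks only. *Morc1* itself had 1 knockout-only, 1 heterozygous-only and 4 shared peaks. Of 24 meiosis genes, 21 (87.5%) had a gene-end peak in both lists. All their private peaks, 3 and 1 (10% and 3.57% of their lists' peaks), fell to *Mei4*. Of 21 cell cycle genes, 17 had a gene-end peak in both lists, and they held 12 knockout-only and 6 heterozygous-only peaks.

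DNA methylation genes held 6 knockout-only and 6 heterozygous-only peaks over 14 genes. These were 18.75% of their peaks in each list, against 23.4% and 18.8% over all genes. *Dnmt1*, the maintenance methyltransferase, had a heterozygous-only peak, chr9:20958410-20958910, inside the gene 1228 bp from its upper outer end, present at P0. It counted as a gene-end peak because its edge reaches the window. The 19 genes of H3K9 methylation and heterochromatin held 8 and 9, 16.3% and 18% of their lists' peaks. Of these, *Kdm4c*, a histone demethylase, took 4 and 6. *Ehmt2*, which encodes the methyltransferase G9a, had 1 and 1. At *Setdb1*, *Trim28* and *Suv39h2* there was no private peak.

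Large families outside the germ line gave a comparison. The 1104 olfactory receptor genes held 173 knockout-only and 156 heterozygous-only peaks, 24.1% and 22.3% of their lists' peaks. The 67 protocadherin genes held 158 and 211, 18.4% and 23.2% of their lists' peaks, against 23.4% and 18.8% over all genes. It was the non-clustered genes *Pcdh17*, *Pcdh20*, *Pcdh9*, *Pcdh7* and *Pcdh10* that carried most of them. The clustered protocadherins of chromosome 18 had few private peaks of either class, with at most 2 per gene. Of the 67 genes, 7 had a gene-end peak in the knockout list only (10.4%, against 2.92% over all genes). In the heterozygous list only, 4 had one (5.97%, against 2.01%). All of these genes are clustered ones. *Pcdhb15* had 2 knockout-only and 0 heterozygous-only peaks, and *Pcdhga11* had 0 and 2. The 391 Zfp genes held 184 and 131, 19.6% and 14.8%. The 80 ribosomal protein genes had a gene-end peak in both lists in 73 cases (91.25%, against 59.1% over all genes). In 1 list only it was 0 cases, against 2.92% (knockout) and 2.01% (heterozygous) over all genes. They held 28 knockout-only and 16 heterozygous-only peaks, 20.6% and 12.9% of their lists' peaks.

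Many private sites were open at some other time. Of the knockout-only peaks, 63.5% (62.6% to 64.3%) overlapped a peak of another stage, and of the heterozygous-only peaks 57.2% (56.2% to 58.1%). The P0 list held 48.9% of knockout-only and 45.4% of heterozygous-only peaks, and the P3 list 26.9% and 20.8%. Both E13.5 lists held 14.7% and 9.97%. Among knockout-only peaks, 647 occurred in the E13.5 knockout list alone and 660 in the E13.5 heterozygous list alone. Among heterozygous-only peaks the numbers were 406 and 366. A site private to a genotype at E16.5 was thus found in the same genotype's E13.5 list about as often as in the other's.

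Recurrence was highest near starts. Within 500 bp of a start, 85.0% of knockout-only and 77.6% of heterozygous-only peaks occurred at another stage, against 61.2% and 55.5% beyond 100 kb. Of the 193 knockout-only peaks at the 10 genes with the largest knockout excess, 111 occurred at another stage, 97 of them at P0. Of the 308 heterozygous-only peaks at the 9 genes named for a heterozygous excess, 187 did, 174 of them at P0. At *Trps1* 14 of 20 knockout-only peaks were in the P0 list, and at *Gm597* 27 of 32 heterozygous-only peaks were.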

How the data were processed

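The authors deposited 8 ATAC-seq peak lists, 1 for each of 4 stages and 2 genotypes, each giving the chromosome, start and end of a peak with no score. Nearly all peaks are 501 bp wide. Per the submitters' processing notes, bcl2fastq 2.20, cutadapt 1.18, Bowtie2 2.3.4.1, deepTools 3.5.0 and HOMER 4.10 were used and the build was mm10. The role of each tool, the peak threshold, the treatment of duplicates and the pooling of samples are not given in the sources used here. Fixed widths keep a peak's centre and discard its breadth. Groups came from the labelled genotype and stage. The P0 lists of both genotypes were identical, and so were the P3 lists, and each pair was used once with no genotype.

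Peaks were read as GRCm38 and written 1-based. Genes were the 20665 protein-coding autosomal genes of a RefSeq GRCm38.p6 table. Distances to starts used 20085 starts of 16457 genes from a RefSeq promoter table, which has none on chromosome 18, and gene ends used a window of 1000 bp around both outer ends. Where several gene bodies held a midpoint, the shortest gene was taken. Genes named are the first 12 by peaks of each private class, the first 10 by excess each way (1 of them is not reported here), the first 10 with private peaks of 1 class only, and members of the gene lists with a gene-end peak in 1 genotype. Other list members were named after their values were seen. The comparison, its members and the lists were chosen with earlier results of these data known. Ratio intervals were obtained by converting the Wilson bounds of the matching share. Alternatives were other overlap rules, windows, gene sets and gene assignments. On a simulated list of 22000 peaks, 2000 of 2000 private peaks were found. They had been placed more than 1000 bp from any heterozygous-list peak, so this checks the code and not the private calls. On the E16.5 lists themselves, 0 of 500 gene assignments of knockout-list peaks were wrong. There, 4 overlap counts equalled those of bedtools 2.31.1. Computations used Python 3.11.15 with pandas 2.3.3, numpy 2.4.6 and statsmodels 0.14.6.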

Additional observations from a re-analysis of the deposited data

Results flagged for a closer look

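Autosomal knockout-only peaks divided by heterozygous-only peaks gave 1.32 at E16.5 and 0.907 at E13.5, on opposite sides of 1. This stage difference was not tested, since each ratio comes from 1 list per genotype, and each ratio follows the lengths of the lists compared.

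The X chromosome is outside the autosomal comparison. It had 641 knockout-only and 294 heterozygous-only peaks at E16.5, a ratio of 2.18 (1.90 to 2.50), and 116 and 222 at E13.5, a ratio of 0.523. Depth behind these lists is unknown and its part in the ratios was not tested.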

How the results depend on the processing

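Of 97 values recomputed under another setting, 73 stayed close to the value reported and 24 moved, where close means inside the reported interval for shares, medians and ratios and within 1.5 times for counts. With a reciprocal overlap of at least 50%, 25.6% of the knockout list and 21.1% of the heterozygous list were private, the ratio was 1.28, and 7.94% of knockout-only and 8.23% of heterozygous-only peaks met a gene end. With peaks within 500 bp also counted as shared, the values were 22.5% and 17.8% private, and 5.90% and 5.48% at a gene end. A gene-end window of 500 bp gave 24.6% of shared, 5.08% of knockout-only and 4.70% of heterozygous-only peaks, and one of 5000 bp gave 34.5%, 14.6% and 15.3%. With all annotated genes, the median distance to a start was 23.7 kb, 38.5 kb and 48.3 kb in the same order, and gene ends took 33.4%, 13.8% and 12.7%. The order of the private classes at gene ends thus depends on the window, the overlap rule and no other setting tried. Asking for 5 or more private peaks left 472 genes with knockout-only and 308 with heterozygous-only peaks. The added settings for the gene lists were chosen after seeing the data, and without *Nr5a2* and *Tbx3* the pluripotency list held 27 knockout-only peaks. No paired analysis was possible because the files hold no value per sample, and leaving out replicates was not run for the same reason. A stricter threshold was not run because the lists carry no score. Unknown depth limits every count of private peaks.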
